A study of Mus musculus with 49 samples.

Results

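The metabolic nuclear receptors and the aryl hydrocarbon receptor were followed through hepatocyte culture by 3′-end RNA sequencing of 49 mouse libraries in 16 conditions. The set held 9 genes of the 46078 in the count table: Nr1i2, Nr1i3, Nr1h4, Nr0b2, Nr5a2, Nr1h3, Ppara, Rxra and Ahr. They were chosen by name and by no cutoff on a measured value, though with earlier results of these data known. All 9 were found in the table and all had counts. Hepatocytes came from wild-type C57BL/6J male mice of 10 weeks, were isolated by collagenase digestion and were measured fresh (FH, n = 3) or after 3 h, 1 day, 2 days, 4 days, 1 week and 2 weeks as monolayers on type I collagen with EGF (n = 3 each). Further monolayers were kept for 7 days with the Yap inhibitor verteporfin at 0.3 µM or with its solvent DMSO (n = 2 each). Dedifferentiated hepatocytes that grow as passaged monolayers (dediHeps, n = 5) were also measured as 3D aggregates on low-attachment plates (dediHep aggregates, n = 3), as spherical organoids in Matrigel with an intestinal organoid medium (dediHep-SOs, n = 3) and, after retroviral transduction with the intestinal transcription factor Cdx2, as budding organoids (dediHep-BOs, n = 3, without an empty-vector group among the libraries analysed here). The intestinal references were spherical organoids from fetal intestinal cells of E13.5 embryos (FIPC-SOs, n = 3) and budding organoids from crypts of 10-week-old adults (ISC-BOs, n = 4), both wild-type C57BL/6J. Chemically induced liver progenitors (CLiPs, n = 3) were hepatocytes cultured without serum in the presence of Y-27632, A-83-01 and CHIR99021. Each aggregate and each dediHep-SO library shared a code in its column name with a dediHep library, read here as the culture it came from. For the other replicates nothing stated that they came from separate animals, and p-values then measure the spread between these libraries, which may be technical.

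Nuclear receptors are transcription factors whose activity is set by small lipophilic ligands. Pxr (Nr1i2) and Car (Nr1i3) sense drugs and steroids, Fxr (Nr1h4) senses bile acids, LXRα (Nr1h3) oxysterols and PPARα (Ppara) fatty acids, and each binds DNA with RXRα (Rxra) as its partner. Shp (Nr0b2) has no DNA-binding domain and represses other receptors, among them Lrh-1 (Nr5a2), which drives bile acid synthesis in the liver and also acts in crypt cells of the gut. Ahr is not a nuclear receptor but a basic helix-loop-helix factor that chaperones hold in the cytoplasm. After ligand binding it pairs with Arnt and induces the Cyp1 enzymes.

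The upstream sequences of Nr0b2, Nr1h4 and Nr5a2 are shown because these genes form the bile acid circuit, in which Lrh-1 is known to activate Nr0b2 and Shp to repress the targets of Lrh-1. RefSeq windows of the 250 bases before a start site (GRCm38.p6) were matched by symbol for 8 of the 9 genes, all but Ahr. They were searched on both strands for TCAAGG, the core bound by Lrh-1, GTTAAT, a half-site of the hepatocyte factor Hnf1, AGGTCA, the half-site of nuclear receptors, and GCGTG, the core bound by Ahr with Arnt. No motif overlapped another. The sequences run 5′ to 3′ on the strand of the gene, and capitals mark TCAAGG in Nr0b2 and GTTAAT in Nr1h4 and Nr5a2.
Nr0b2, chr4:133553126-133553375, plus strand: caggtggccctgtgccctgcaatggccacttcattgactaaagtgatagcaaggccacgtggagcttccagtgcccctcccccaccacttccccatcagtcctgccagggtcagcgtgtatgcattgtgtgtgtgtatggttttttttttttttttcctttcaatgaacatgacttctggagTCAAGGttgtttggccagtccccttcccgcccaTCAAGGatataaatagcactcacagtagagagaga
Nr1h4, chr10:89506659-89506908, minus strand: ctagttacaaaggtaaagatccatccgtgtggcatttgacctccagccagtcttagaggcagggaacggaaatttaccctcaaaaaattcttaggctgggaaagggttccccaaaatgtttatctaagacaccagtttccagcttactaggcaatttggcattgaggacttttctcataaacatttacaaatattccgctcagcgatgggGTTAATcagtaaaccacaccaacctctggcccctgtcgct
Nr5a2, chr1:136960449-136960698, minus strand: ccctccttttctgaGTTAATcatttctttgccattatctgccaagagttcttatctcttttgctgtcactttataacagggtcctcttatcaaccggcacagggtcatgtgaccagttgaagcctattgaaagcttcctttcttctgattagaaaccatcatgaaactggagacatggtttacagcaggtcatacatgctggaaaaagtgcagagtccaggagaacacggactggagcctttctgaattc
The Nr0b2 window held TCAAGG at 68 and 35 bases before the start site. Among 32851 windows of the same length, 12.5% held TCAAGG and 0.922% held it at 2 or more places. GTTAAT lay 40 bases before the Nr1h4 start, which is a start inside the annotated gene, and 236 bases before that of Nr5a2, against 6.43% of windows with a match. AGGTCA was present for Nr1h4, Nr5a2 and a second start of Rxra (14% of windows), and GCGTG for Nr0b2, Ppara and a second start of Nr5a2 (28.2% of windows). A match is a run of letters and was not measured as a binding site.

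Library totals ran from 861047 to 3872936 UMI counts (median 1976760), and 3 counts in a library correspond to 0.630 to 4.10 CPM, a floor that covers counting error only. Levels are CPM scaled by TMM factors over all 49 libraries, with the SD between libraries after ±. FH and 3 h libraries had factors of 0.590 to 0.678 against 0.909 to 1.27 in all others, so that the scaling raises both groups. Without the factors the median log2 change of all genes against FH shifted up by 0.65 to 0.88 in every comparison with FH other than 3 h, and results that depend on this are given with both values. All 8 hepatocyte markers were counted in FH (summed 19042 to 22583 CPM), whereas Tat and Tdo2 were at 0 in dediHeps (854.6 to 3879 CPM). The 9 intestinal markers were all counted in dediHep-BOs (3009 to 3615 CPM) and ISC-BOs (3118 to 3889 CPM). FH also carried markers of other liver cells, with all 5 endothelial genes (183 to 317 CPM), all 5 stellate genes (55.8 to 103 CPM), all 6 macrophage genes (40.3 to 161 CPM), 1 of 3 leukocyte genes (2.07 to 7.08 CPM) and 3 of 5 cholangiocyte genes (17.8 to 106 CPM, Krt19 and Epcam at 0). In dediHeps the endothelial, stellate, macrophage and leukocyte sums reached 0.503, 1.68, 10.3 and 0.503 CPM. The cholangiocyte sum moved the other way, to 693 to 732 CPM at 3 h, with Krt19 still at 0, and 1126 to 1318 CPM at 2 weeks. It was 1010.3 to 1671 CPM in dediHeps, 2494 to 3206 CPM in dediHep-SOs and 303 to 551 CPM in dediHep aggregates. The paper reports CK19, the protein of Krt19, in the hepatocyte-derived cells themselves. It also describes dediHep-derived SOs as not biliary. The part of all these markers in the receptor levels was not tested.

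Across the 16 conditions 7 of the 9 genes had their highest mean in FH and 6 had their lowest in dediHep-SOs. Among these 6, Nr1i3 was tied, with no count in dediHep-SOs or at 1 week. The exceptions at the top were Rxra, highest in dediHep aggregates at 217 ± 36.5 CPM, and Ahr, highest in dediHep-SOs at 106 ± 17.7 CPM. With CPM of library totals 6 genes were highest in FH, and Nr1h4 was then highest in dediHeps. When the conditions were ordered by mean, most neighbours overlapped in their libraries, and between 0 and 3 of the 15 neighbouring pairs of each gene were apart. Nr1i3 had 3 such steps, with FH above 3 h, ISC-BOs above dediHep-BOs and dediHep-BOs above dediHep aggregates. Nr1h4 had 2, both among the lowest conditions, from FIPC-SOs to ISC-BOs and from there to dediHep-SOs. Nr1i2, Nr0b2, Nr1h3, Ppara and Rxra had 1 each, and Nr5a2 and Ahr had none. Nr0b2 had no count in 24 of 49 libraries, Nr1i3 in 17, Ppara in 2 and Nr1i2 in 1, while the other 5 genes were counted in every library. In bulk RNA fewer cells that express a gene and less RNA per cell cannot be told apart.

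**Figure D1:**
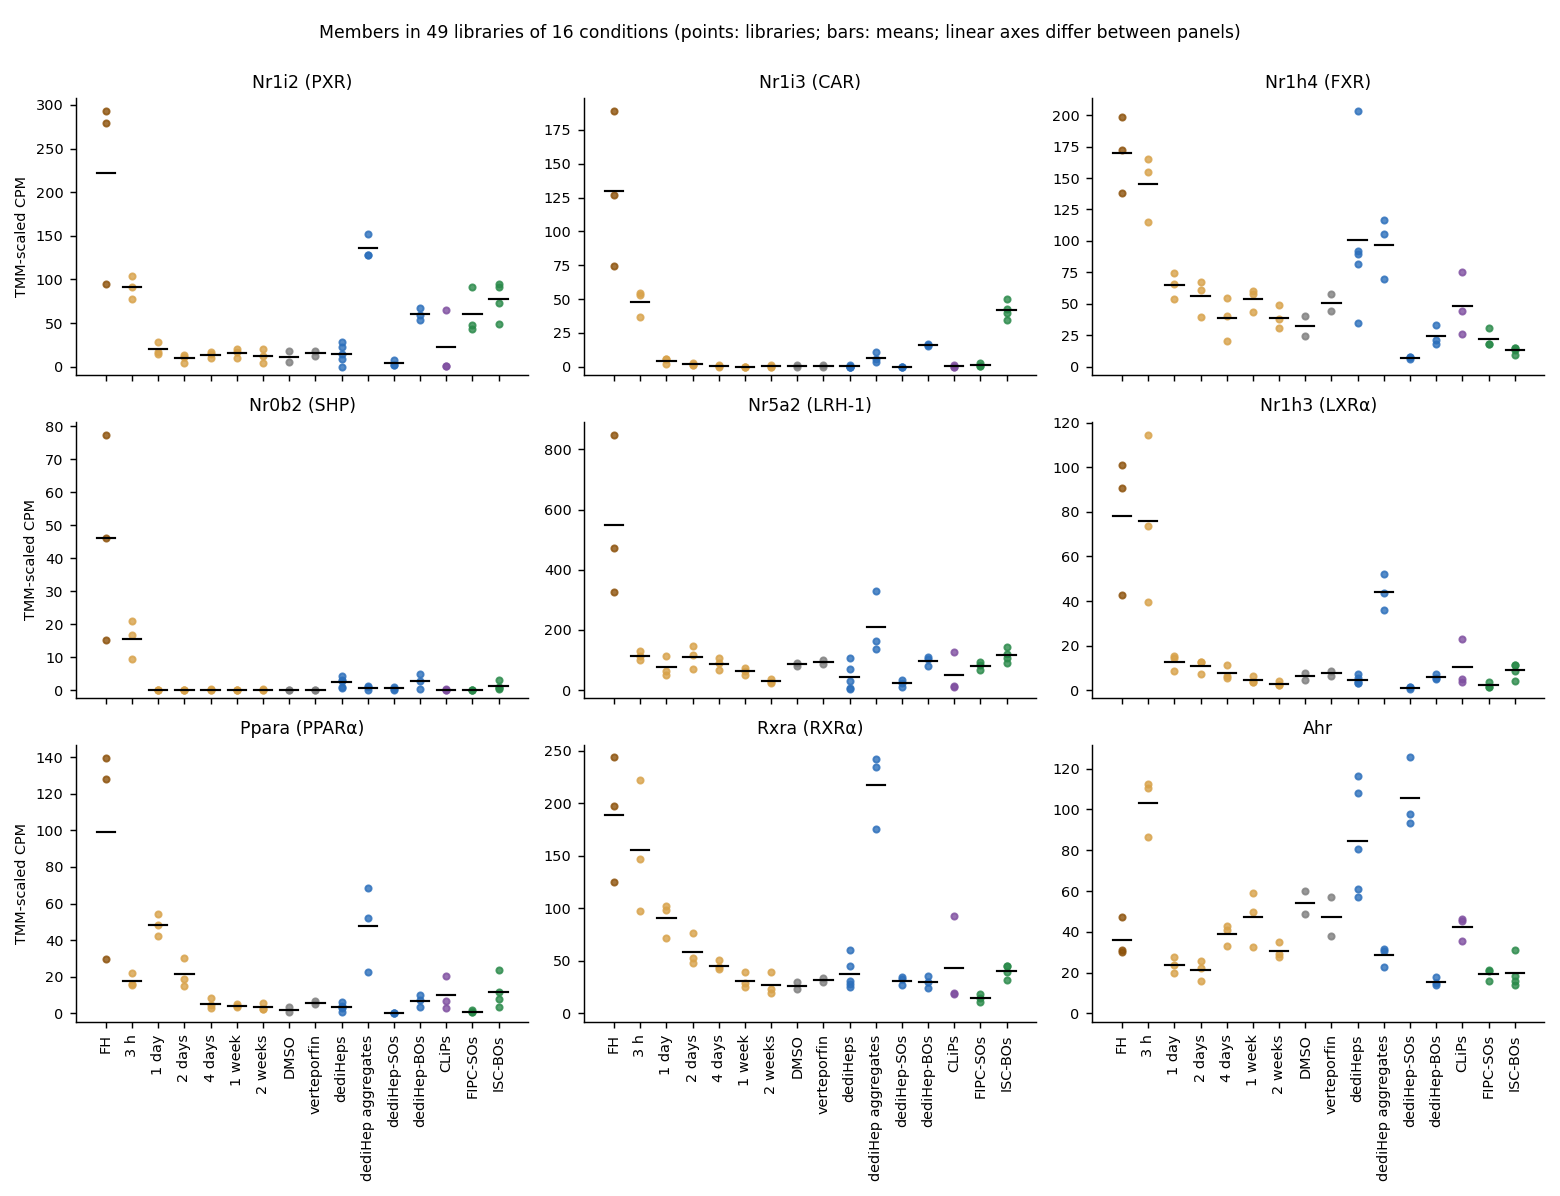
Scaled CPM of the 9 genes (1 panel each, linear y axes that differ between panels) in every library of the 16 conditions (x axis), with a bar at each mean. FH, at the left, has the highest mean in 7 panels, Rxra peaks in dediHep aggregates and Ahr in dediHep-SOs.

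The first question was how fast the receptors are lost once hepatocytes are plated. At 3 h, 6 of 9 genes passed the test, 1 higher and 5 lower. Of the 12443 genes tested 18.5% passed, 7.58% higher and 10.9% lower. The count of 6 was 3 to 5 with 1 library left out, 3 with all 49 libraries in 1 fit, and 0 with a block by the number in the column names, of which FH and 3 h share 1. A gene passed with an adjusted p under 0.1 in the edgeR quasi-likelihood test, and was called when the log2 change was also over 2 in size. Only Nr5a2 and Ppara were called at 3 h (6.91% of all genes). The median log2 change of the 9 genes was −1.31 against −0.07 for all genes tested. All 9 were lower and passed at 1 day (39.9% of all genes passed and 22.2% were lower) and at 2 days (44.3% and 23.1%). At 4 days (47% of all genes, 23.5% lower), 1 week (49%, 23.5% lower) and 2 weeks (55.6%, 27.6% lower) 8 of the 9 passed, all lower, and Ahr did not. The number called was 5 at 1 day (17.4% of all genes), 6 at 2 days (21.3%), 8 at 4 days (23.8%), 7 at 1 week (25.9%) and 8 at 2 weeks (29.5%). The median of the 9 genes was −2.72 at 1 day, −3.40 at 4 days and −4.22 at 2 weeks, and that of all genes lay between −0.03 and 0.17 from 1 day on. In dediHeps 8 of 9 passed, 7 lower and Ahr higher, where 45.1% of all 11276 genes tested passed, 22.7% lower and 22.4% higher. The 7 lower genes were all called (25.7% of all genes), with a median of −3.99 against 0.08 for all genes. These comparisons share the same 3 FH libraries. Hepatocyte markers summed to 23939 to 25179 CPM at 3 h, 5812 to 6909 CPM at 1 day and 1118 to 1449 CPM at 2 weeks. The same sum was 1167 to 1632 CPM in ISC-BOs, with 7 of 8 markers counted, so that low sums are not specific to hepatocytes. The part of these markers in the receptor levels was not tested.

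**Figure D2:**
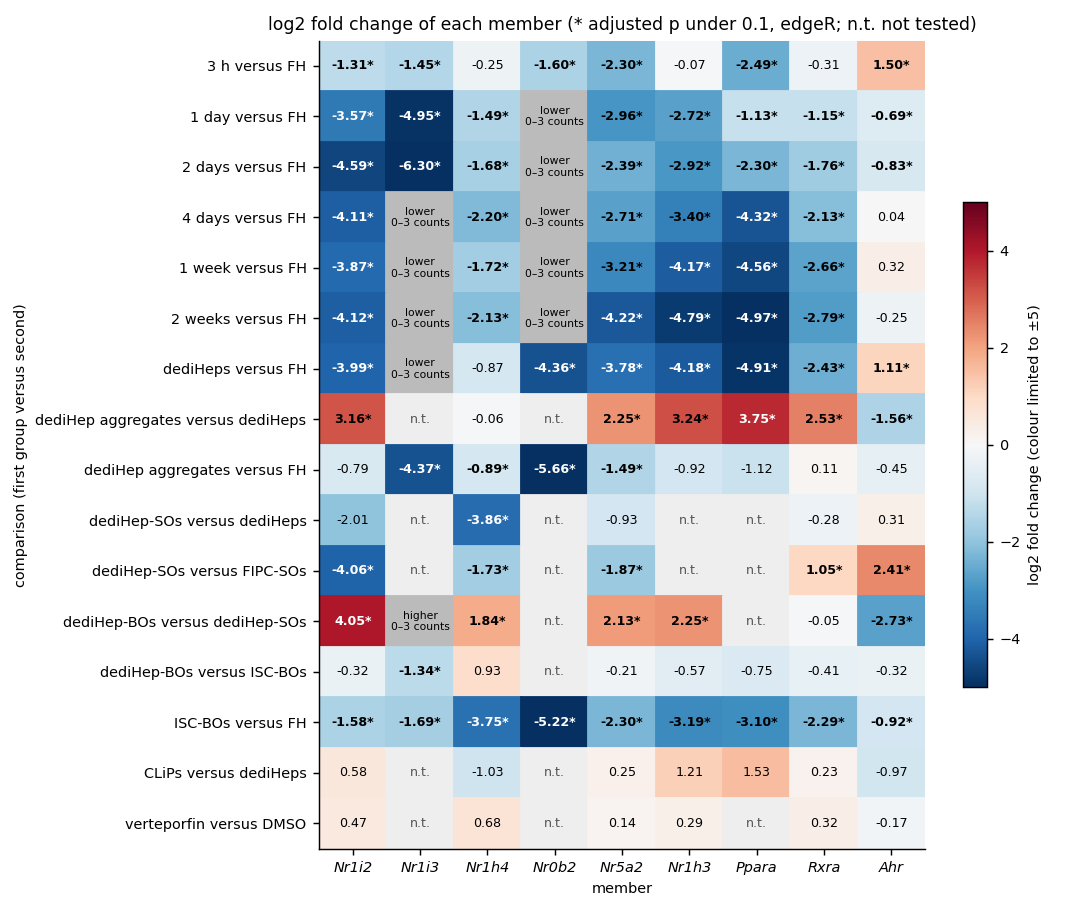
Log2 changes of the 9 genes (columns) in the 16 comparisons (rows), with colour limited to 5 in either direction, bold values with an asterisk for an adjusted p under 0.1, and grey cells where the lower group had 0 to 3 counts or the gene was not tested. From 1 day to 2 weeks the 8 genes other than Ahr are lower than FH, and 5 of them are higher in aggregates than in dediHeps.

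Nr1i2 (ENSMUSG00000022809, chr16:38248323-38294824, minus strand, GRCm38) encodes the receptor for many drugs and steroids. Its FH libraries had 94.4, 293 and 279 CPM, the 3 h libraries 104, 91.6 and 77.8 CPM, and the 1-day libraries 28.2, 14.6 and 16.8 CPM. The lowest FH library lay within the range of 3 h, while all 1-day libraries were below both. The log2 change of Nr1i2 was −1.31 ± 0.45 (SE) at 3 h (adjusted p = 0.0604), −3.57 ± 0.49 at 1 day (adjusted p = 6.65e-06) and −4.12 ± 0.51 at 2 weeks (adjusted p = 7.43e-07). The 3 h result was lost when any 3 h library, FH replicate 2 or FH replicate 3 was left out, with adjusted p-values up to 0.221. The dediHeps held 0, 9.05, 23.0, 15 and 27.9 CPM of Nr1i2, all below FH, and the log2 change against FH was −3.99 ± 0.80 (adjusted p = 0.00229).

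Nr1i3 (ENSMUSG00000005677, chr1:171213970-171220701, plus strand) encodes Car, which shares many target genes with Pxr. Its 3′ end overlaps Tomm40l on the opposite strand, and reads of the pair cannot be told apart unless strand was used, which was not stated. FH had 74.3, 189 and 127 CPM of Nr1i3, 3 h had 36.9, 53.0 and 54.6 CPM and 1 day had 5.64, 5.55 and 2.04 CPM. The 3 groups did not overlap. The log2 change was −1.45 ± 0.47 at 3 h (adjusted p = 0.0505) and −4.95 ± 0.56 at 1 day (adjusted p = 1.01e-06). The 3 h result was lost when any 3 h library, FH replicate 2 or FH replicate 3 was left out (adjusted p up to 0.247). Later only traces of Nr1i3 were counted: 3 counts over the libraries of 4 days, which is 278-fold lower than FH (95% counting interval 94.3 to 1356), none at 1 week, at least 335-fold lower, and 1 count at 2 weeks. The 5 dediHep libraries held 3 counts in all, every one in replicate 3, and were 497-fold below FH (169 to 2425). Such a bound is set by the floor of 3 counts over the group.

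Nr1h4 (ENSMUSG00000047638, chr10:89454234-89533585, minus strand), the bile acid receptor, did not pass at 3 h and was lower from 1 day on. FH libraries held 138, 172 and 198 CPM, 3 h libraries 115, 166 and 154 CPM and 1-day libraries 53.8, 65.5 and 74.8 CPM. FH and 3 h overlapped, and 1 day lay below both. The log2 change of Nr1h4 was −0.25 ± 0.33 at 3 h (adjusted p = 0.66), −1.49 ± 0.34 at 1 day (adjusted p = 0.00157) and −2.13 ± 0.35 at 2 weeks (adjusted p = 2.87e-05). The dediHeps had 92.3, 81.9, 203, 35.1 and 89.96 CPM, with replicate 3 above all FH libraries and the other 4 below them. The dediHep level of Nr1h4 did not pass against FH, at a log2 change of −0.87 ± 0.47 (adjusted p = 0.171). Without dediHep replicate 3 the change was −1.28 and passed (adjusted p = 0.0298), and with library totals the main comparison gave 0.05.

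Nr0b2 (ENSMUSG00000037583, chr4:133553376-133556536, plus strand), the repressor Shp whose promoter is printed above, had no count by 1 day. FH held 46.0, 15.05 and 77.4 CPM and 3 h held 16.6, 21.0 and 9.29 CPM, so the groups overlapped at a log2 change of −1.60 ± 0.60 (adjusted p = 0.096). That result was lost when any library but FH replicate 2 was left out (adjusted p up to 0.432) and under DESeq2 (adjusted p = 0.129). No count of Nr0b2 was found at 1 day, at least 102-fold below FH, at 2 days, at least 115-fold below, or at 1 week, at least 129-fold below. Single counts remained at 4 days and at 2 weeks. The dediHeps had 0.559, 1.01, 2.72, 3.16 and 4.26 CPM, all below FH, with a log2 change of −4.36 ± 0.63 (adjusted p = 0.000263).

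Nr5a2 (ENSMUSG00000026398, chr1:136842571-136960448, minus strand), the gene for Lrh-1, was one of the 2 genes called at 3 h. The FH libraries held 324, 849 and 471 CPM, and the 3 h libraries 112, 130.2 and 98.7 CPM. The groups were apart, at a log2 change of −2.30 ± 0.38 (adjusted p = 0.00049), which passed with any library left out (adjusted p 0.000146 to 0.00610). Means of Nr5a2 then stayed between 62.2 and 111 CPM from 1 day to 1 week and reached 29.7 ± 5.43 CPM at 2 weeks, where the log2 change was −4.22 ± 0.42 (adjusted p = 2.33e-08). The dediHeps varied widely, with 3.36, 28.7, 70.4, 108 and 7.10 CPM, all below FH. Their log2 change was −3.78 ± 0.86 (adjusted p = 0.00494).

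Ppara (ENSMUSG00000022383, chr15:85734983-85802819, plus strand), the fatty acid sensor that drives oxidation and ketogenesis, was lower at 3 h than at the times on either side of it. FH held 29.5, 139.5 and 128 CPM, 3 h held 15.3, 22.1 and 16.3 CPM, and 1 day held 54.2, 42.3 and 48.3 CPM. All 3 h libraries were below both FH and 1 day, whereas 1 day lay within the FH range. Against FH the log2 change of Ppara was −2.49 ± 0.49 at 3 h (adjusted p = 0.00246), −1.13 ± 0.44 at 1 day (adjusted p = 0.0532) and −4.97 ± 0.57 at 2 weeks (adjusted p = 2.26e-07). The 1-day result was lost when FH replicate 2 or 3, or 1-day replicate 2 or 3, was left out (adjusted p up to 0.240) and with library totals (−0.42, adjusted p = 0.448). The 1-day and 3 h groups were not compared by a test of their own. In dediHeps Ppara stood at 3.48 ± 2.01 CPM, a log2 change of −4.91 ± 0.61 (adjusted p = 9.6e-05).

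Nr1h3 (ENSMUSG00000002108, chr2:91184061-91202834, minus strand), the oxysterol sensor, did not pass at 3 h and was lower at 1 day. Its FH libraries held 42.5, 101 and 90.9 CPM and the 3 h libraries 73.9, 115 and 39.5 CPM, a log2 change of −0.07 ± 0.41 (adjusted p = 0.944). The mean was 12.7 ± 3.5 CPM at 1 day (log2 change −2.72 ± 0.45, adjusted p = 5.58e-05), 2.85 ± 1.09 CPM at 2 weeks and 4.60 ± 1.59 CPM in dediHeps (log2 change −4.18 ± 0.43, adjusted p = 2.25e-05). Rxra (ENSMUSG00000015846, chr2:27676440-27762957, plus strand), the common partner, had 125, 243 and 197 CPM in FH and 147, 222 and 97.5 CPM at 3 h. These overlapped, at a log2 change of −0.31 ± 0.34 (adjusted p = 0.582). The Rxra mean declined to 27.2 ± 10.6 CPM at 2 weeks (log2 change −2.79 ± 0.37, adjusted p = 1.63e-06) and was 38.0 ± 14.8 CPM in dediHeps (log2 change −2.43 ± 0.38, adjusted p = 0.000415).

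Ahr (ENSMUSG00000019256, chr12:35497974-35535038, minus strand) took another course. FH held 47.2, 30.1 and 31.0 CPM, 3 h held 86.6, 110.3 and 113 CPM, and 1 day held 27.8, 19.7 and 23.9 CPM. The 3 h libraries were all above FH and the 1-day libraries all below it. The log2 change of Ahr was 1.5 ± 0.31 at 3 h (adjusted p = 0.00369, at most 0.0239 with any library left out) and −0.69 ± 0.31 at 1 day (adjusted p = 0.0924). The lower level at 1 day was lost when FH replicate 1 or any 1-day library was left out (adjusted p up to 0.358), and the log2 change was −0.03 with library totals. At 2 days the change was −0.83 ± 0.31 (adjusted p = 0.0385), lost without FH replicate 1 or 2-day replicate 3 (adjusted p up to 0.195), and −0.05 with library totals. From 4 days to 2 weeks Ahr means were 38.9, 47.1 and 30.6 CPM and did not pass. With library totals Ahr was higher than FH at 4 days (log2 change 0.92, adjusted p = 0.0245) and 1 week (1.2, adjusted p = 0.00419). In dediHeps it stood at 108, 80.4, 57.1, 61.2 and 116 CPM, all above FH, with a log2 change of 1.11 ± 0.39 (adjusted p = 0.0439) that was lost without FH replicate 2 or 3 (adjusted p up to 0.143).

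Target genes of the receptors were taken from lists chosen with earlier results of these data known. At 3 h, where 7.58% of all genes were higher and 10.9% lower, 2 of the 8 Car and Pxr targets tested were higher and 1 lower. Of 6 LXR targets tested 1 was higher and none lower. The 2 Fxr targets tested, Abcb4 (log2 change −0.91, adjusted p = 0.108) and Abcb11 (−0.51, adjusted p = 0.482), did not pass. Cyp2b10, the Car target that is a drug-metabolising enzyme, rose from 13.1 ± 12.6 to 42.1 ± 4.59 CPM (log2 change 1.70, adjusted p = 0.0471). Tiparp, a target of Ahr that modifies proteins with ADP-ribose, rose from 14.1 ± 10.2 to 1568 ± 342 CPM (log2 change 6.77 ± 0.76, adjusted p = 5.63e-06). It was the only 1 of 3 Ahr targets tested that passed. Cyp1a2, a Cyp1 enzyme of the same list, was at 1836 CPM in FH and 2161 CPM at 3 h and did not pass (log2 change 0.21, adjusted p = 0.765). Nor did Nqo1 (1.67, adjusted p = 0.126). Cyp1a1, Cyp1b1, Ahrr and Aldh3a1 had at most 2 counts in either group and were not tested. Of 15 PPARα targets 2 were higher and 1 lower, with Ehhadh of peroxisomal oxidation at a log2 change of 3.69 ± 0.72 (adjusted p = 0.00277). Of the 3 genes repressed through Shp only Cyp8b1, which makes cholic acid, passed, and it was lower (log2 change −1.38, adjusted p = 0.017).

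By 2 weeks all 8 Car and Pxr targets tested, both Fxr targets tested of 6 listed, all 3 genes repressed through Shp, all 6 LXR targets tested and 12 of 15 PPARα targets tested were lower (27.6% of all genes), and no tested gene of these lists was higher. In dediHeps 6 of 7 Car and Pxr targets, both Fxr targets, all 3 genes repressed through Shp, 4 of 6 LXR targets and 10 of 13 PPARα targets tested were lower than in FH (22.7% of all genes), with no tested gene higher. By summed counts some untested Fxr targets, named after their values were seen, went the other way in dediHeps. Slc51a, part of the basolateral bile acid exporter, had 162 counts against none in FH, at least 11.7-fold higher. Its partner Slc51b had 58 against 1, 12.6-fold higher (2.17 to 506). Fgf15, the hormone of the gut that signals bile acid supply, had 57 counts against none, at least 4.12-fold higher. These counts were uneven between the dediHep libraries, at 9.89 ± 21.3, 3.63 ± 7.29 and 3.46 ± 7.53 CPM in that order. The SD exceeded each mean, and the bounds and the interval cover counting error only. Abcb11, the bile salt export pump, fell from 1153 ± 501 CPM in FH to 0.789 ± 1.12 CPM in dediHeps (log2 change −10.53 ± 0.84, adjusted p = 4.22e-06). Abca1, the cholesterol exporter, had a log2 change of −4.80 (adjusted p = 0.000523), while Cyp1a2 fell from 1836 to 0.818 CPM (log2 change −11.19, adjusted p = 5.84e-06). The Cyp2c, Cyp3a and Cyp4a genes are families of near-identical copies and Ugt1a1 shares its 3′ exons, so that their counts are uncertain. Leave-one-out fits were made for the 9 genes and not for the targets.

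The next question was which receptors return when dediHeps are aggregated. Of the 7 genes tested, 6 passed between dediHep aggregates and dediHeps, 5 higher and Ahr lower (24.4% of the 11265 genes tested, 12.2% in each direction), and the 5 higher were all called (9.51%). The median log2 change was 2.53 over the 7 genes against −0.07 for all genes. Aggregate libraries 1, 2 and 3 carried the culture codes of dediHep replicates 1, 2 and 4, and with culture as a block the same 6 genes passed. Nr1i2 had 128, 128 and 152 CPM in the aggregates, where the dediHeps of the same cultures had 0, 9.05 and 15 CPM. All aggregates were above all dediHeps, with a log2 change of 3.16 ± 0.72 (adjusted p = 0.0187). Nr1i3, with 5.65, 3.47 and 10.7 CPM, was too low in dediHeps to be tested and stood 25.6-fold higher than their 3 counts (8.08 to 130).

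The lipid sensors and Rxra moved the same way. Nr1h3 had 43.6, 36.1 and 51.9 CPM in the aggregates, all above the highest dediHep library at 7.11 CPM (log2 change 3.24 ± 0.36, adjusted p = 0.000526). Ppara had 22.6, 68.6 and 51.9 CPM against at most 6.03 CPM (log2 change 3.75 ± 0.55, adjusted p = 0.00222). Rxra had 234, 175 and 242 CPM against at most 60.4 CPM (log2 change 2.53 ± 0.33, adjusted p = 0.00121). Ranges were apart for all 3 genes. These results passed with any library left out.

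The bile acid genes differed among themselves. Nr5a2 had 162, 135 and 328 CPM in the aggregates, each above the highest dediHep library, at a log2 change of 2.25 ± 0.83 (adjusted p = 0.091). This was lost without any 1 of the 3 aggregates, dediHep replicate 2 or replicate 5 (adjusted p up to 0.277) and with library totals (2.02, adjusted p = 0.111). Nr1h4 stood at 69.5, 105 and 117 CPM, within the dediHep range, at a log2 change of −0.06 ± 0.48 (adjusted p = 0.942), or 0.57 with the culture as a block (adjusted p = 0.372). Nr0b2 had 0, 1.30 and 1.02 CPM, 5 counts in all, where dediHeps had 0.559 to 4.26 CPM, and was not tested. Ahr was lower at 30.7, 31.7 and 22.9 CPM, below every dediHep library (log2 change −1.56 ± 0.35, adjusted p = 0.0163).

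Against FH, 4 of 9 genes passed in the aggregates, all lower (35.7% of 9544 genes passed and 19.7% were lower), and the count ran from 2 to 7 when 1 library was left out, with 7 without FH replicate 1. Nr1i3 (log2 change −4.37 ± 0.55, adjusted p = 0.00024) and Nr0b2 (−5.66 ± 0.79, adjusted p = 0.000414) were called (16.6% of all genes) and passed in every such fit. Nr5a2 had a log2 change of −1.49 ± 0.47 (adjusted p = 0.0352), lost without FH replicate 2 or aggregate 1 or 2 (up to 0.162) and with library totals (−0.82, adjusted p = 0.165). Nr1h4 had −0.89 ± 0.36 (adjusted p = 0.0854), lost without any library but FH replicate 1 (up to 0.304) and with library totals (−0.23, adjusted p = 0.629). Nr1i2 (−0.79 ± 0.43, adjusted p = 0.196), Nr1h3 (−0.92 ± 0.41, adjusted p = 0.123), Ppara (−1.12 ± 0.58, adjusted p = 0.175), Rxra (0.11 ± 0.36, adjusted p = 0.845) and Ahr (−0.45 ± 0.40, adjusted p = 0.436) did not pass. A p that misses the threshold does not show equal levels. Without FH replicate 1, Nr1i2, Nr1h3 and Ppara passed as lower.

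**Figure D3:**
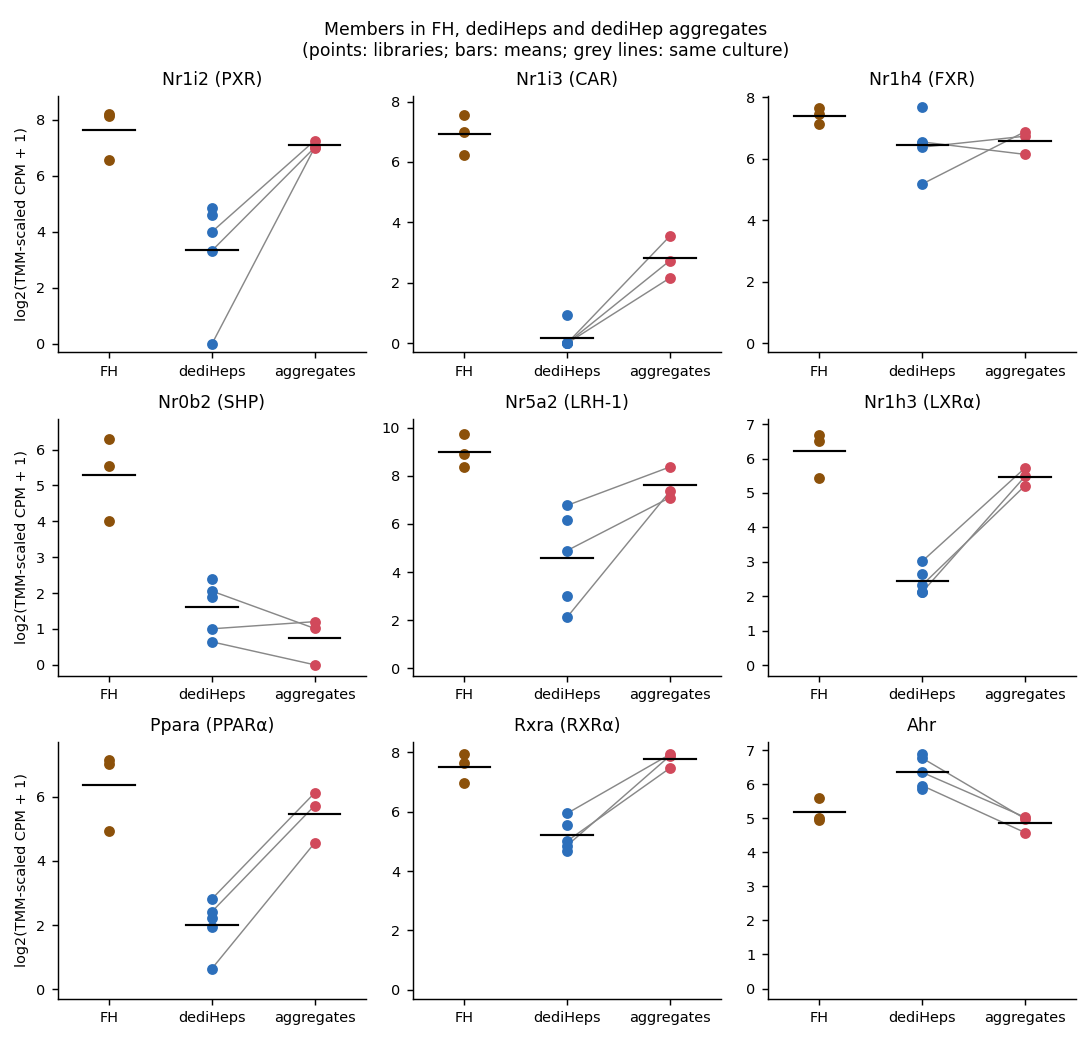
Log2(CPM + 1) of the 9 genes (1 panel each) in FH, dediHeps and dediHep aggregates, with points for libraries and grey lines joining an aggregate to the dediHep library of the same culture. Nr1i2, Nr5a2, Nr1h3, Ppara and Rxra are higher in every aggregate than in every dediHep library, and Ahr is lower.

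Among the targets tested, 4 of 7 of Car and Pxr, both of Fxr, both genes repressed through Shp, 4 of 6 of LXR and 8 of 13 of PPARα rose in the aggregates (12.2% of all genes), and no tested gene of these lists fell. Fgf15, not tested, had no count in the aggregates against 57 counts in dediHeps, at least 8.91-fold lower. The dediHep counts were uneven between libraries (3.46 ± 7.53 CPM), and not every dediHep culture was aggregated. Cyp2b10 went from 0.260 to 56.2 ± 39.8 CPM (log2 change 7.19 ± 0.85, adjusted p = 0.000658), and Abcb11 from 0.789 to 112 ± 41.5 CPM (7.07 ± 0.78, adjusted p = 0.000526). Abcg8, a sterol exporter, changed by 3.78 (adjusted p = 0.0104). Slc10a1, the bile acid uptake carrier, had 2 counts in dediHeps and stood 282-fold higher in the aggregates (77.4 to 2344). Of the Ahr targets, Cyp1a2 rose from 0.818 to 66.8 CPM (6.31 ± 0.95, adjusted p = 0.00268) and Tiparp fell (−2.30 ± 0.80, adjusted p = 0.076). All 8 hepatocyte markers were counted in the aggregates and summed to 6020 to 10542 CPM, and their part in these results was not tested.

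The intestinal organoid conditions were compared next. Of 5 genes tested between dediHep-SOs and dediHeps only Nr1h4 passed, as lower (16.1% of 11470 genes passed, 8.21% were lower and 8.76% were called), with 7.39, 5.95 and 7.40 CPM against at least 35.1 CPM (log2 change −3.86 ± 0.58, adjusted p = 0.00159). With all 49 libraries in 1 fit 4 genes passed and without the low-count filter 2 did, and those added were among the 4 genes too low for the fit of 2 groups. Nr1i2 had 1.93, 1.49 and 7.87 CPM and a log2 change of −2.01 ± 1.01 (adjusted p = 0.242), or −2.33 without dediHep replicate 1, where it passed (adjusted p = 0.0348). Nr5a2 (−0.93, adjusted p = 0.561), Rxra (−0.28, adjusted p = 0.674) and Ahr (0.31, adjusted p = 0.591) did not pass. Nr1i3 had no count in dediHep-SOs, Ppara had 1 and Nr0b2 had 3, and none of these was tested. Ppara was 26.1-fold below dediHeps (4.43 to 1055) and Nr0b2 was 6.01-fold below (1.86 to 30.8). Nr1h3 was also too low to be tested, at 1.61, 0.496 and 1.39 CPM, all below the dediHeps. In dediHep-SOs 4 of 8 hepatocyte markers, Alb among them, were at 0.

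Compared with FIPC-SOs, all 5 genes tested passed, 2 higher and 3 lower in dediHep-SOs (23.5% of 11608 genes, 13.1% higher and 10.3% lower). Nr1i2 and Ahr were called (8.91% of all genes). Nr1i2 had 91.2, 47.7 and 43.0 CPM in FIPC-SOs, above every dediHep-SO library (log2 change −4.06 ± 0.61, adjusted p = 0.00192). Nr1h4 (−1.73 ± 0.38, adjusted p = 0.0138) and Nr5a2 (−1.87 ± 0.39, adjusted p = 0.0105) were lower as well. Ahr had 93.2, 97.8 and 126 CPM in dediHep-SOs and 15.97, 20.7 and 21.2 CPM in FIPC-SOs, with no overlap (log2 change 2.41 ± 0.31, adjusted p = 0.000779). Rxra was higher at 32.5, 26.8 and 34.7 against 18.3, 10.9 and 15.1 CPM (1.05 ± 0.33, adjusted p = 0.0571), which was lost without dediHep-SO replicate 1 or 2 or FIPC-SO replicate 2 or 3 (up to 0.197). Cyp1b1, an Ahr target, was at 149 ± 61.4 CPM in dediHep-SOs and 6.55 CPM in FIPC-SOs (log2 change 4.46 ± 0.41, adjusted p = 0.00016), and 2 other Ahr targets, Nqo1 and Tiparp, were lower.

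Between dediHep-BOs, which carry Cdx2, and dediHep-SOs 6 of 7 genes tested passed, 5 higher and Ahr lower (40.5% of 11301 genes, 19.2% higher and 21.3% lower), and 5 were called (11.3%), at a median log2 change of 2.13 against −0.00 for all genes. Nr1i2 had 53.9, 59.5 and 67.7 CPM in dediHep-BOs, far above the 1.49 to 7.87 CPM of dediHep-SOs (log2 change 4.05 ± 0.53, adjusted p = 0.000537). Nr1i3 had 17.0, 16.3 and 15.04 CPM where dediHep-SOs had no count, at least 39.0-fold higher (adjusted p = 0.000242). Nr1h4 with 18.4, 21.6 and 33.0 CPM changed by 1.84 ± 0.37 (adjusted p = 0.00541) and Nr5a2 with 102, 110.2 and 80.6 CPM by 2.13 ± 0.38 (adjusted p = 0.00303). For each of these 4 genes the groups were apart.

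Nr1h3 was also higher, at 7.28, 4.85 and 5.43 CPM (log2 change 2.25 ± 0.54, adjusted p = 0.013). Ppara, not tested, had 7.28, 3.53 and 10.02 CPM against 1 count in dediHep-SOs, 51.0-fold higher (8.71 to 2055), and Nr0b2 was 6.14-fold higher than its 3 counts there (1.78 to 32.7). Rxra did not pass (−0.05 ± 0.30, adjusted p = 0.914). Ahr had 15.04, 17.6 and 13.8 CPM in dediHep-BOs, below every dediHep-SO library (−2.73 ± 0.30, adjusted p = 0.000202). Intestinal markers summed to 491 to 624 CPM in dediHep-SOs, with Fabp2 at 0, against 3009 to 3615 CPM in dediHep-BOs, and stellate and fibroblast markers reached 0.964 and 75.0 CPM. Their part in these results was not tested.

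Against ISC-BOs only Nr1i3 of 8 genes passed (10.2% of 11303 genes, 4.94% lower). It was lower in dediHep-BOs than the 42.7, 50.2, 34.7 and 39.8 CPM of ISC-BOs, without overlap (log2 change −1.34 ± 0.26, adjusted p = 0.0127). Nr1h4 was at 14.6, 9.62, 13.1 and 14.9 CPM in ISC-BOs, below every dediHep-BO library, and did not pass (0.93 ± 0.31, adjusted p = 0.107). The other 6 genes had log2 changes between −0.75 and −0.21, all with adjusted p of at least 0.375. Compared with FH all 9 genes were lower in ISC-BOs and passed (54.1% of 11287 genes, 25.6% lower), 6 of them called (28.1%), from −0.92 ± 0.40 for Ahr (adjusted p = 0.0766) to −5.22 ± 0.68 for Nr0b2 (adjusted p = 5.44e-05). The Ahr result was lost without FH replicate 1 or ISC-BO replicate 1, 2 or 3 (up to 0.216) and with library totals (−0.13). With library totals Nr1i2 (−0.75, adjusted p = 0.13) also did not pass.

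The change from spherical to budding organoids was then set against that between FIPC-SOs and ISC-BOs in one fit of the 4 groups, a test added after the data were seen. The dediHep change differed from the intestinal one for 6 of 8 genes (18.3% of 12379 genes), and for 3, Nr1i2, Nr1h4 and Ahr, with all 49 libraries in 1 fit. Nr1i2 rose by 3.71 ± 0.64 more on the log2 scale in the dediHep pair (adjusted p = 0.0025), where the intestinal change was 0.33. Nr1h4 differed by 2.62 ± 0.46 (adjusted p = 0.00285) and Nr5a2 by 1.63 ± 0.44 (adjusted p = 0.0324). Ahr differed by −2.76 ± 0.45 (adjusted p = 0.00152), with an intestinal change of 0.02. Rxra differed by −1.49 ± 0.39 (adjusted p = 0.027), with an intestinal change of 1.43. Nr1i3 differed by 3.37 ± 1.15 (adjusted p = 0.0802), a value that rests on a group with no count and was lost in 9 of 13 fits with 1 library left out (up to 0.239). Nr1h3 (0.29, adjusted p = 0.817) and Ppara (1.80, adjusted p = 0.386) did not pass. FIPC-SOs are fetal and ISC-BOs adult. The paper also describes Wnt3a and CHIR99021 in the medium of spherical organoids and their absence from that of budding ones. Age, medium and organoid form therefore cannot be told apart in the intestinal pair, nor Cdx2, medium and organoid form in the dediHep pair.

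**Figure D4:**
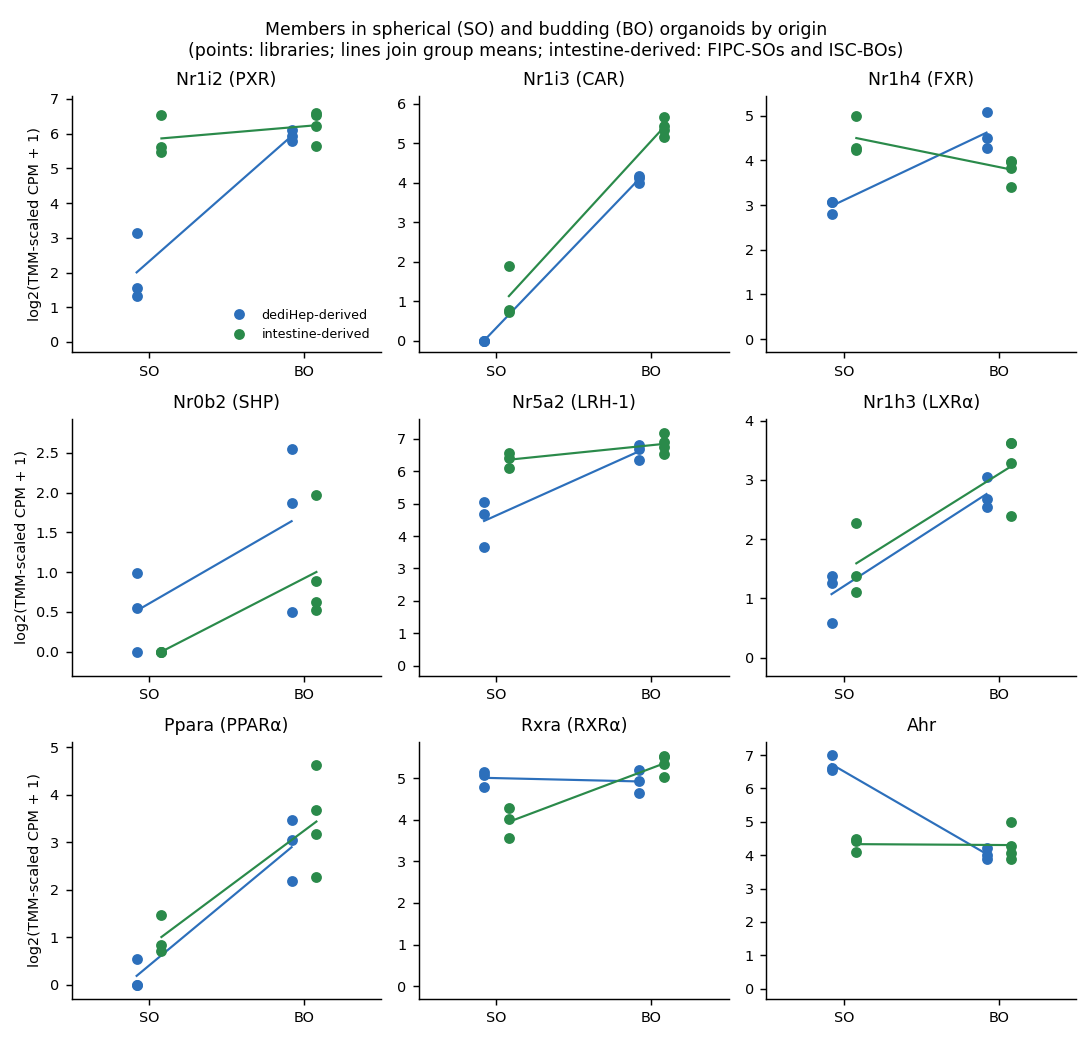
Log2(CPM + 1) of the 9 genes (1 panel each) in spherical (SO) and budding (BO) organoids of dediHep and of intestinal origin, with points for libraries and lines joining the group means. Nr1i2, Nr1h4 and Nr5a2 rise steeply in the dediHep pair and Ahr falls there, while the intestinal pair is nearly level for Nr1i2 and Ahr.

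In dediHep-BOs 6 of 7 Car and Pxr targets, both Fxr targets, 4 of 5 LXR targets and 8 of 11 PPARα targets tested were higher than in dediHep-SOs (19.2% of all genes), with no tested gene lower. Fgf15, not tested, had 18 counts against 78 (2.73 ± 2.22 and 11.8 ± 19.4 CPM), and no gene repressed through Shp was high enough to be tested. Cyp2c55, a detoxifying enzyme of the gut, changed by 6.40 ± 0.97 (adjusted p = 0.00122) and Abcc2, an exporter of conjugates, went from 1.70 to 98.8 CPM (5.96 ± 0.94, adjusted p = 0.00153). Slc51a went from 0.617 to 30.5 CPM (5.67 ± 0.82, adjusted p = 0.000914). Fabp1, the fatty acid binding protein, had 576 CPM against no count, at least 1400.3-fold higher. Of 3 Ahr targets, Cyp1b1 fell from 149 to 7.45 CPM (−4.29 ± 0.43, adjusted p = 0.000119), Tiparp rose (2.76 ± 0.48, adjusted p = 0.00257) and Nqo1, with 1 count in dediHep-SOs, was 105-fold higher (18.4 to 4196).

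CLiPs and verteporfin were compared with their own controls. In CLiPs against dediHeps 0 of 7 genes passed in edgeR (4.69% of 11567 genes), 1 had an unadjusted p under 0.05 and DESeq2 gave 1, in each case Ahr. With all 49 libraries in 1 fit 5 genes passed, Nr1h4 and Ahr lower and Nr1h3 and Ppara higher among the 7, and 1 gene too low for the fit of 2 groups. Ahr had 45.4, 46.4 and 35.7 CPM in CLiPs, below every dediHep library (log2 change −0.97 ± 0.35, adjusted p = 0.195 in edgeR). CLiP replicate 3 stood apart, with 64.7 CPM of Nr1i2 where the others had 0.986 and 0.420, and 126 CPM of Nr5a2 where they had 10.8 and 14.3. Its hepatocyte markers summed to 5325 CPM against 1366 and 1198 CPM in the other 2 libraries. Of 6 macrophage markers only 2 were counted in CLiPs, summing to 66.4 to 138 CPM over the 3 libraries, with Clec4f, Adgre1, Marco and Timd4 at 0. The part of these markers in the receptor levels was not tested. Without CLiP replicate 3 the log2 changes were −4.46 for Nr1i2, −1.77 for Nr5a2, −0.11 for Nr1h3 and −0.97 for Rxra, all opposite in sign to those of the 3 libraries, and none passed.

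With verteporfin 0 of 6 genes passed (0.375% of 10400 genes), none had an unadjusted p under 0.05 and DESeq2 gave 0. Log2 changes ran from −0.17 ± 0.31 for Ahr to 0.68 ± 0.34 for Nr1h4. Ppara was not tested, with 5.15 and 6.81 CPM under verteporfin and 0.658 and 3.36 CPM under DMSO. Some targets did pass, among them Cyp2b10 at 40.5 against 3.04 CPM (log2 change 3.74 ± 0.43, adjusted p = 0.01). Over the lists 1 of 4 Car and Pxr targets and 3 of 12 PPARα targets were higher, and 1 of 5 LXR targets, the desaturase Scd1, was lower (−2.11 ± 0.30, adjusted p = 0.0302).

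Partners, chaperones and related receptors were counted in the same way. The 4 Ahr chaperones had adjusted p-values of at least 0.114 between dediHeps and FH. Of 6 partners and paralogs tested in dediHeps only Vdr, the vitamin D receptor, passed, at 19.7 CPM where FH had no count, at least 15.99-fold higher. Among all genes 22.4% were higher and 22.7% lower. Vdr was higher again in dediHep-BOs, at 741 against 66.6 CPM in dediHep-SOs (3.51 ± 0.31, adjusted p = 7.73e-05), and there Ppard fell from 91.6 to 17.3 CPM (−2.36 ± 0.38, adjusted p = 0.0018).

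Of 19 other nuclear receptors tested in dediHeps, 10 were lower than in FH and 4 higher, where 22.7% of all genes were lower and 22.4% higher. The oestrogen receptor Esr1 (−6.32 ± 0.55, adjusted p = 7.68e-06) and the thyroid hormone receptor Thrb (−5.44 ± 0.54, adjusted p = 1.9e-05) had the largest changes. In the aggregates 5 of 17 were higher than in dediHeps and 2 lower (12.2% of all genes in each direction), with Thrb at 2.51 ± 0.58 (adjusted p = 0.0194). In dediHep-BOs 7 of 16 were higher than in dediHep-SOs and 3 lower, against 19.2% and 21.3% of all genes. Among the higher ones was Hnf4g, an intestinal relative of Hnf4a, at 41.7 against 1.07 CPM (5.10 ± 0.56, adjusted p = 0.000201). Of 8 coregulators 1 was lower in dediHeps (22.7% of all genes), Ppargc1b (−3.0 ± 0.47, adjusted p = 0.000457), which had been lower at 3 h already (−3.48 ± 0.64, adjusted p = 0.00135).

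Genes with the most similar profile over the 16 condition means of log2(CPM + 1) were found among 12815 genes that reached 10 CPM in a condition. They describe likeness only, since the conditions share libraries' origin and scale. For Nr1h3 the closest were Proz (Pearson r 0.967), Slc27a2 and Upb1, for Nr1i3 Nat8 (0.954), Bco2 and Slc25a15, and for Rxra Gm11789 (0.954), Plin5 and Gcgr. For Ppara they were Mfsd4b3 (0.950), Tprkb and Slc25a44, for Nr0b2 Ppp1r3g (0.948), Gbp11 and Gm5524, and for Nr1i2 Mtfp1 (0.918), Abcg5 and Cps1. For Nr1h4 they were Evi5 (0.917), Pgrmc1 and Cd1d1, and for Nr5a2 Zbtb8os (0.901), Thrb and Glt1d1. Ahr had no profile as close, with Palmd, Sik1 (0.784) and Dlg1 (0.776) at the top. Among the 9 genes themselves Nr1h3 and Rxra were most alike (0.918), and Ahr had r between −0.379 and 0.232 with the other 8.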

How the data were processed

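RNA of 49 libraries was measured by CEL-seq2, a 3′-end method with unique molecular identifiers (UMIs) of 6 bases. The deposited values are raw UMI counts per gene, made by the authors with the celseq2 pipeline on GRCm38. The submitters' processing notes name bcl2fastq 2.20, Bowtie2 2.3.1 and HTSeq 0.6.0, while the annotation release and the strand setting are not given in the sources used here. With 4096 possible UMIs the highest member count was 673. Replicates of 1 group differed by more than sampling noise in all 54 pairs (chi-square per degree of freedom 5.62 to 68).

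Of 46078 identifiers 45143 had a symbol and 14097 had no count. Counts were tested with edgeR 4.0.16 in R 4.3.3 (quasi-likelihood F-test, TMM, filterByExpr with a minimum count of 10 and a total of 15), adjusted by Benjamini-Hochberg over all genes tested, at an adjusted p under 0.1. The time course was 1 fit of 7 groups, and every other comparison was fitted on its 2 groups. Fold changes against groups with 1 to 3 counts carry 95% counting intervals, and those against no count use a floor of 3 counts over the group. The edgeR test was tried on simulated data for 1 day against FH and for dediHep-BOs against dediHep-SOs. Small changes and changes in genes of low count were not simulated, so that this check does not cover them. Alternatives were DESeq2 1.42.0, RLE factors, no low-count filter, all libraries in 1 fit, replicate blocks and leaving out each library, and, added after the data were seen, library totals, a correction for shared UMIs, a block by column number and the organoid interaction. Column names pair aggregates with dediHeps: samples of the same culture deviated together (r 0.169 to 0.322, 3 of 3 highest with their own culture). For dediHep-SOs the shared codes did not pair the samples in the data (r −0.436 to 0.019, 0 of 3 highest with their own culture). Named were all 9 genes, up to 4 genes of each list by size of change, and the 3 most similar genes for each. The genes and lists were chosen with earlier results of these data known.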

Additional observations from a re-analysis of the deposited data

Results flagged for a closer look

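Among 18 groups of 4 or 5 libraries tested for a library far from the others, 2 had one. Chance alone gives about 1 in 20 for normally spread values, a rate that does not hold for counts near 0. Nr1i3 was at 0.907 CPM in dediHep replicate 3, where the other 4 dediHep libraries had no count, and this rests on 3 counts. With the others at 0, any count in that library would have been flagged. Nr0b2 was at 2.93 CPM in ISC-BO replicate 2, where the next highest of the 4 libraries had 0.847 CPM.

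The change from spherical to budding organoids differed between dediHep and intestinal origin for 6 genes in the edgeR fit of the 4 groups, and for 3 with all 49 libraries in 1 fit. The difference in log2 change, dediHep minus intestinal, was 3.71 for Nr1i2, 3.37 for Nr1i3, 2.62 for Nr1h4, 1.63 for Nr5a2, −1.49 for Rxra and −2.76 for Ahr. In dediHep-SOs every library was below every FIPC-SO library for Nr1i2, Nr1h4 and Nr5a2 and above for Rxra and Ahr. The value for Nr1i3 rests on a group without counts.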

How the results depend on the processing

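Of 1911 recomputed changes of single genes 1767 kept their direction and side of the threshold, 97 no longer passed, 18 newly passed and 29 reversed. With all 49 libraries in 1 fit the number of genes passing was 3 at 3 h, 2 for aggregates against FH, 4 for dediHep-SOs against dediHeps, 0 for dediHep-BOs against ISC-BOs, 5 for CLiPs and 3 for the organoid difference. Library totals gave 2 for aggregates against FH and 2 for dediHep-BOs against ISC-BOs, no low-count filter gave 2 for dediHep-SOs against dediHeps, and DESeq2 gave 2 for dediHep-BOs against ISC-BOs and 1 for CLiPs. The cause was not tested. Library totals reversed Ahr at 2 weeks (0.46), Nr1h4 in dediHeps (0.054) and Ahr in aggregates against FH (0.20).

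Replicate numbers did not pair the samples outside the aggregates. Of the pairings tried, a replicate block by the number in the column name left 0 genes at 3 h, where FH and 3 h share 1 number, and put Nr1h3 there at 0.017, while the block by replicate number gave 5. The block by culture put Nr1h4 in aggregates at 0.57 and Rxra in dediHep-SOs against dediHeps at 0.14, and the replicate block put Nr1i2 in CLiPs at −0.19. In the verteporfin comparison r was 0.296, which is a single value, since with 2 libraries per group both pairs must give the same r. There 0 of the 6 genes tested passed with or without the block. In CLiPs no sample correlated best with its own number.

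With 1 library left out, the number passing ran from 3 to 5 at 3 h, 7 to 8 at 1 day, 8 to 9 at 2 days, 8 at later times, 7 to 9 in dediHeps, 5 to 6 in aggregates against dediHeps, 2 to 7 in aggregates against FH, 1 to 2 in dediHep-SOs against dediHeps, 4 to 5 against FIPC-SOs, 6 to 7 in dediHep-BOs against dediHep-SOs, 1 to 2 against ISC-BOs, 8 to 9 in ISC-BOs, 5 to 6 for the organoid difference and 0 in CLiPs and verteporfin. Changes that crossed 0 ran from −0.48 to 0.23 for Nr1h3 at 3 h, −0.056 to 0.27 for Ahr at 4 days, −0.28 to 0.37 for Nr1h4 in aggregates against dediHeps, −0.11 to 0.33 for Rxra in aggregates against FH, −0.16 to 0.13 for Rxra in dediHep-BOs against dediHep-SOs and −0.34 to 0.60 for the Nr1h3 organoid difference. In CLiPs they ran from −4.46 to 1.17 for Nr1i2, −1.77 to 0.90 for Nr5a2, −0.11 to 1.64 for Nr1h3 and −0.97 to 0.61 for Rxra. With verteporfin, where the lone sample is assumed to vary like the other group, they ran from −0.46 to 0.076 for Ahr, −0.027 to 0.73 for Nr1h3 and −0.20 to 1.60 for Nr1i2.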
